A study of Nicotiana plumbaginifolia and Nicotiana benthamiana and Nicotiana rustica with 81 samples.

Results

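The sugar transporters of the Nicotiana floral nectary were taken as the 107 of 38230 reference transcripts of N. tabacum whose description names a bidirectional sugar transporter, a sucrose transporter, a sugar transport protein, an ERD6-like, polyol or inositol transporter or a monosaccharide-sensing protein. The hexose carrier name, also searched, matched 0 transcripts. By class they are 40 bidirectional sugar transporters of the SWEET family, which include the NEC1-like transcripts, 10 sucrose transporters, 11 sugar transport proteins, 21 ERD6-like transporters, 11 monosaccharide-sensing proteins, 6 polyol transporters and 8 inositol transporters. They come from 96 N. tabacum genes, and 105 of them carry a match to one of 35 Arabidopsis loci. The choice used descriptions alone and no measured value.

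Nectaries make nectar by breaking down stored starch, resynthesising sucrose and exporting it from the secretory cells. SWEET proteins are uniporters that let sugar move down its gradient, and SWEET9 is the sucrose exporter that nectar production depends on in Arabidopsis and in Nicotiana attenuata. NEC1, first described from Petunia nectaries, is its counterpart there. Sucrose transporters (SUC), sugar transport proteins (STP), polyol transporters and most inositol transporters bring their substrates into the cell together with protons, while monosaccharide-sensing proteins (the tonoplast monosaccharide transporters, TMT) load the vacuole and ERD6-like proteins are mostly vacuolar facilitators.

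RNA was sequenced from hand-dissected nectaries of 6 species, N. benthamiana, N. rustica, N. glauca, N. plumbaginifolia, N. bonariensis and N. clevelandii, each grown from 1 seed stock, and from leaf, ovary and sepal of N. plumbaginifolia. The nectary stages were stage 6 (immature), stage 9 (immature, before secretion), stage 12 (open flowers at anthesis) and a post secretory stage, described in the protocol as following fertilization. Each of the 27 groups had 3 libraries, 81 in all, and nothing in the labels says that they came from separate plants, so the SDs and p-values may measure technical spread only. For each group the deposited table gives a mean and an SD of normalized counts, computed by the authors, with no values per library and no totals, so the depth is unknown.

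The columns of N. clevelandii and N. bonariensis were identical, with 0 differing values, and were used once as 1 joint profile, which left 5 profiles and 20 nectary means. One transcript made up 46.8% of the N. plumbaginifolia stage 9 column. Nectary markers (12 transcripts of nectarin-1, MYB305 and CRABS CLAW) summed to between 8759 and 35729 in the 15 nectaries of stages 6 to 12. In N. plumbaginifolia they summed to 324 in leaf, 2419 in ovary and 2973 in sepal. Some members were higher in a tissue there. The nectarin-1-like XM_016601497.1 was listed at 0 in N. plumbaginifolia nectaries and had 870 in sepal. The MYB305-like XM_016584086.1 was at 0 against 261 in sepal. The CRABS CLAW-like XM_016610040.1 had 80 in the stage 12 nectary against 156 in ovary. In the 5 post secretory nectaries the sum of the 12 markers was 781 to 3508, lower than at stage 12 in every profile. Of the 12, the nectarin-1-like XM_016657282.1 went the other way in all 5 profiles, for example 707 post secretory against 364 at stage 12 in N. glauca, where the post secretory sum was 1026. Leaf mesophyll markers (26 transcripts) summed to between 11092 and 25130 in post secretory nectaries, against 1525 to 11411 at stages 6 to 12. Their part in the changes below was not tested. Some leaf mesophyll transcripts were lower post secretory than at stage 12, as given beside SWEET14. Ovule and ovary markers (10 transcripts, matched mainly to the ovule development genes AGL11 and BEL1) summed to between 91 and 2680 at stages 6 to 12 and between 338 and 2147 post secretory. In N. plumbaginifolia they summed to 3243 in ovary, 1041 in leaf and 1015 in sepal, so this sum does not measure ovary tissue alone. It also includes transcripts that match the AGL11 locus but are described as AGL27. Of these, XM_016580285.1 made up 240 of 408 in N. plumbaginifolia nectaries at stage 6 and had 209 at stage 12. XM_016580287.1 made up 124 of 251 in N. rustica at stage 6 and had 137 at stage 12. In such bulk tissue, fewer cells of a type and less RNA per cell cannot be told apart.

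The spread between libraries was uneven among the groups. The median SD of the transporters with a mean of at least 10 was between 7.02% and 16.7% of the mean in 19 of the 23 distinct groups. It was 38.2% in N. glauca stage 12, 39.4% in N. rustica post secretory nectaries, 49% in joint post secretory nectaries and 51.6% in leaf. All transcripts together showed the same 4 groups as the widest, with 21.7%, 25.4%, 30.2% and 35.3%.

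The species did not use the same reference transcripts. Of the 107 transporters, 22 were above 0 in the nectaries of all 5 profiles (20.6%, against 31.5% of all transcripts), whereas 26 of the 35 Arabidopsis loci were (74.3%, against 85% of all loci), once the means of all transcripts with the same Arabidopsis match were summed. N. plumbaginifolia had 55 transporters listed at 0 in all 4 nectary stages (51.4%, against 37.3% of all transcripts), N. rustica 41 (38.3%, against 33.1%), N. glauca 35 (32.7%, against 29.5%), N. benthamiana 34 (31.8%, against 27%) and the joint profile 23 (21.5%, against 18.9%). For example, the monosaccharide-sensing transcript XM_016611423.1 had 770 to 1126 normalized counts in N. rustica at stages 6 to 12 and 16 to 45 across N. glauca stages, and was listed at 0 in the other 3 profiles. Results are therefore given for single transcripts and for locus sums, named after the Arabidopsis locus. The sum of the SDs is an upper limit for the SD of a sum. Sums can include reads that the authors' counting divided between near-identical copies.

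SWEET9, the nectar sucrose exporter, had the largest limma estimate of the 34 transporter loci tested, both up to stage 12 and after it. Transcript XM_016615427.1, described as NEC1-like, had means of 12265 ± 296, 31927 ± 549, 70716 ± 2105 and 101 ± 22 normalized counts in N. benthamiana at stages 6, 9, 12 and post secretory (SD, n = 3 libraries here and for all means below). In N. glauca it had 2152 ± 69, 34157 ± 392, 28771 ± 12673 and 11 ± 4. In N. plumbaginifolia it had 154 ± 15, 1233 ± 140, 7619 ± 232 and 2595 ± 76. The level was highest at stage 12 in N. benthamiana and N. plumbaginifolia, while in N. glauca stages 9 and 12 differed by less than the SD at stage 12. The joint profile had 514 ± 20, 1603 ± 87, 5742 ± 951 and 81 ± 11 at the same stages, and N. rustica had 249 ± 2, 5862 ± 147, 3145 ± 150 and 29 ± 15. N. rustica was the only profile in which this transcript was lower at stage 12 than at stage 9 by more than the SDs.

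A second NEC1-like transcript, XM_016577514.1, carried the stage 12 peak in N. rustica. It had 494 ± 27, 2968 ± 106, 14854 ± 338 and 104 ± 14 normalized counts there at stages 6, 9, 12 and post secretory. In the joint profile it had 79 ± 17, 262 ± 11, 1038 ± 188 and 18 ± 12, and in N. benthamiana 144 ± 15, 196 ± 24 and 518 ± 11 at stages 6, 9 and 12, and it was listed at 0 post secretory. It stayed at or below 14 in N. glauca and was listed at 0 in every N. plumbaginifolia nectary. The third, XM_016654438.1, appeared only in the joint profile among nectaries, at 18 ± 12, 65 ± 12 and 64 ± 91 from stage 9 onward, and at 122 ± 10 in the N. plumbaginifolia ovary. A transcript described as SWEET9-like, XM_016613971.1, matched the SWEET14 locus instead and was not counted as SWEET9.

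**Figure D1:**
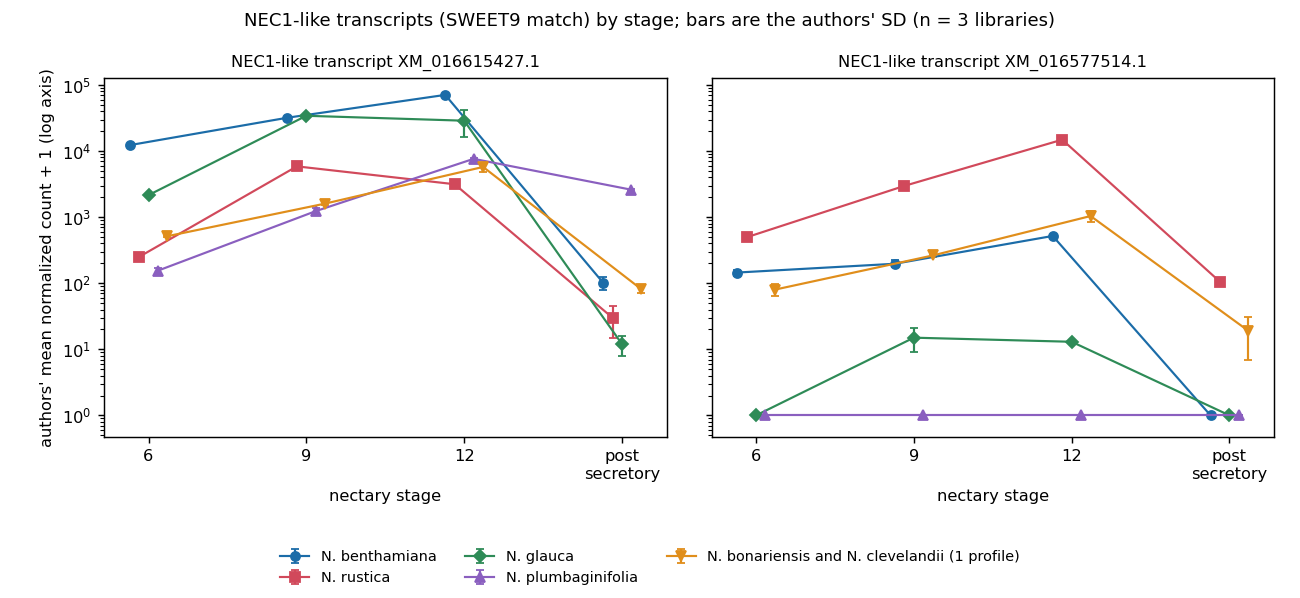
Authors' mean normalized count plus 1 (log axis) of the NEC1-like transcripts XM_016615427.1 and XM_016577514.1 by nectary stage in the 5 profiles, with the authors' SD of 3 libraries as bars. XM_016615427.1 drops to 101 or less in 4 profiles at the post secretory stage and stays at 2595 in N. plumbaginifolia, and XM_016577514.1 reaches 14854 in N. rustica at stage 12.

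Over the 5 profiles, both NEC1-like transcripts fell at the post secretory stage relative to stage 12. The change of XM_016615427.1 was −7.01 on the log2 scale (SE 1.32, lower in 5 of 5 profiles, limma adjusted p = 0.027), and that of XM_016577514.1 was −5.13 (SE 1.00, lower in 4 profiles and 0 in the fifth, limma adjusted p = 0.032). They were the only 2 of the 98 transporters tested that fell in this step (0.554% of all 36627 transcripts fell), and 0 rose (0.232% of all). The locus sum of SWEET9 fell by 6.94 (SE 1.29, 5 of 5 profiles, limma adjusted p = 0.0069). Without N. benthamiana, N. rustica, N. glauca or the joint profile the transcript calls were lost, with limma adjusted p between 0.13 and 0.18, while the locus call held. The summed nectary markers were lower in the same step in all 5 profiles, for example 803 in post secretory against 21109 in stage 12 nectaries of N. benthamiana. Their part in this result was not tested.

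The size of the fall differed between profiles. The log2 change of XM_016615427.1 was −1.55 in N. plumbaginifolia and −11.23 in N. glauca, with the other profiles between them (moderated F = 168, limma adjusted p = 2.4e-13), in a test in which 51.8% of all transcripts differed between profiles. Nectary markers summed to 3508 in post secretory nectaries of N. plumbaginifolia and to 781 to 1026 in the other 4 profiles. At stage 12 they summed to 12224 in N. plumbaginifolia and to 16687 to 35729 in the others. Their part in this difference between profiles was not tested.

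Before secretion ended the SWEET9 locus was higher at the later stage. Stage 12 sums were above stage 6 sums by 2.52 in N. benthamiana, 3.53 in the joint profile, 3.74 in N. glauca, 4.6 in N. rustica and 5.62 in N. plumbaginifolia on the log2 scale. Each of these 5 differences passed the within-profile test from the authors' means and SDs. The limma estimate over the profiles was 4.0 (SE 1.29) and did not pass (adjusted p = 0.059). The step from stage 6 to stage 9 passed within all 5 profiles, and that from stage 9 to stage 12 in 4 of 5, with N. glauca the exception.

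In N. plumbaginifolia, SWEET9 stood far above leaf, ovary and sepal. The locus summed to 7619 (SD at most 232) in stage 12 nectaries, against 2 in leaf, 300 (SD at most 95) in ovary and 0 in sepal. The log2 difference was 11.31 against leaf (SE 0.47, limma adjusted p = 9.3e-06) and 4.66 against ovary (SE 0.19, limma adjusted p = 4.8e-08). The locus was listed at 0 in sepal. The stage 6 nectary, with 154, was nevertheless below the ovary, so the locus did not pass the rule for nectary enrichment, which asks the lowest nectary stage to be at least 4-fold above every other tissue.

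Other SWEETs of the sucrose-exporting clade followed different courses. SWEET11, which exports sucrose for phloem loading in Arabidopsis leaves, peaked at stage 9 in 3 profiles and at stage 12 in 2. Its post secretory sum was 113 against 287 at stage 12 in N. benthamiana, 226 against 799 in N. rustica and 20 against 121 in N. glauca. N. plumbaginifolia had 557 against 1637 and the joint profile 61 against 388. The fall passed the within-profile test in each of the 5, although the limma estimate over profiles of −1.98 (SE 0.79) did not pass (adjusted p = 0.11). Its transcripts were split by species, since the SWEET12-like XM_016624615.1 carried all of the N. plumbaginifolia signal (1637 ± 131 at stage 12) and the SWEET10-like XM_016591710.1 had 668 ± 31 in N. rustica at stage 12 and was listed at 0 in N. plumbaginifolia. Like SWEET9, it was low in leaf (8) and sepal (1), with more in ovary (493, SD at most 93).

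SWEET14, a sucrose exporter that also moves gibberellin in Arabidopsis, ran the other way. Its post secretory sum was 2917 in N. benthamiana, 1933 in N. rustica and 1262 in N. glauca, against 1270, 182 and 143 at stage 12. N. plumbaginifolia had 494 post secretory against 244 at stage 12, and the joint profile 790 against 166. The locus rose by 2.20 over the profiles (SE 0.55, higher in 5 of 5, limma adjusted p = 0.022), and its highest stage was the post secretory one in every profile. In N. plumbaginifolia it stood at 244 (SD at most 43) in the stage 12 nectary, against 8167 (SD at most 6764) in leaf, 855 (SD at most 153) in ovary and 11583 (SD at most 572) in sepal. The log2 difference was −5.06 against leaf (SE 0.56, limma adjusted p = 0.00065) and −5.56 against sepal (SE 0.09, limma adjusted p = 6.4e-26). The sum of leaf mesophyll markers was higher at the post secretory stage as well, but its members did not all move that way. The Rubisco small chain transcripts XM_016585367.1 and XM_016591166.1 had 3122 and 1696 post secretory against 4806 and 4353 at stage 12 in N. benthamiana. In N. rustica XM_016591166.1 had 8204 against 9088, while chlorophyll a-b binding transcripts such as XM_016632342.1 were higher (3633 against 484). The part of these markers in the rise of SWEET14 was not tested.

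SWEET15, known in Arabidopsis as a senescence-associated sucrose exporter, showed values mainly late. The post secretory sums were 2265 (SD at most 1945) in the joint profile, 780 (SD at most 295) in N. glauca, 434 (SD at most 734) in N. rustica and 130 (SD at most 61) in N. benthamiana. At stage 12 the same profiles had 231, 99, 7 and 302. The locus was listed at 0 in all N. plumbaginifolia nectaries but had 703 (SD at most 24) in sepal, 158 in leaf and 58 in ovary, carried by the N3-like XM_016608510.1. Neither the stage 12 estimate of 3.21 (SE 1.10, limma adjusted p = 0.071) nor the post secretory estimate of 2.16 (SE 1.10, limma adjusted p = 0.21) passed over the profiles.

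SWEET10, another member of this clade, was above 0 in every group. Its SWEET12-like transcript XM_016615819.1 had 3610 ± 82 at stage 12 against 969 ± 62 at stage 6 in N. benthamiana, and 1487 ± 53 against 580 ± 66 in N. rustica. In N. glauca it had 1613 ± 412 against 1898 ± 171, and in the joint profile 996 ± 27 against 348 ± 26. It was listed at 0 in N. plumbaginifolia nectaries, where the SWEET11-like XM_016578023.1 of the same locus had 1616 ± 105 at stage 12 and 821 ± 21 at stage 6. The locus was higher at stage 12 than at stage 6 in 4 of 5 profiles, with an estimate of 0.95 (SE 0.31, limma adjusted p = 0.062).

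Among the SWEETs of other clades, SWEET7 had its highest sum after secretion in 4 profiles. The SWEET4-like transcript XM_016578502.1 of the SWEET7 locus had 2264 ± 597 post secretory against 962 ± 47 at stage 12 in N. benthamiana, 3517 ± 4355 against 322 ± 39 in N. rustica and 8005 ± 5906 against 2483 ± 499 in the joint profile. N. plumbaginifolia listed this transcript at 0 and had the SWEET7-like XM_016616465.1 instead, at 2484 ± 70 against 3201 ± 312, and in N. glauca the locus had 3637 (SD at most 1297) against 554 (SD at most 489). The post secretory SD was larger than the mean in N. rustica. The locus estimate of 1.74 (SE 0.63) was higher in 4 of 5 profiles and did not pass (limma adjusted p = 0.086). In leaf the SWEET7 locus was listed at 0, with 3802 (SD at most 77) in ovary and 504 in sepal.

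SWEET1, a plasma membrane glucose uniporter in Arabidopsis, was higher at stage 12 than at stage 6 within all 5 profiles, for example 258 (SD at most 22) against 49 (SD at most 18) in N. benthamiana and 708 (SD at most 65) against 179 (SD at most 31) in the joint profile. The estimate over profiles was 1.49 (SE 0.65, limma adjusted p = 0.14). After stage 12 the profiles parted, with 1208 post secretory against 258 at stage 12 in N. benthamiana and 428 against 2563 in N. glauca. SWEET2, which loads glucose into the root vacuole in Arabidopsis, had an estimate of 0.61 (SE 0.33, limma adjusted p = 0.23) at stage 12 against stage 6 and did not pass.

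SWEET3 had high values in 1 species. The SWEET3b-like XM_016657312.1 had 2476 ± 115, 5953 ± 262, 981 ± 39 and 25 ± 14 at the 4 stages in N. rustica and was listed at 0 in all nectaries of the other 4 profiles. SWEET8 was listed at 0 in N. rustica and N. glauca nectaries and reached 382 in N. plumbaginifolia at stage 12 and 327 in the joint profile post secretory. SWEET17, a vacuolar fructose transporter in Arabidopsis, reached 139 in N. rustica at stage 9 and 67 in N. glauca at stage 12 and did not exceed 5 in the nectaries of the other 3 profiles.

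A SWEET16-like transcript with no Arabidopsis match, XM_016644891.1, had lower values at stage 12 than at stage 6, and it was chosen for description after its values were seen. SWEET16 is a vacuolar sugar transporter in Arabidopsis. It had 1111 ± 59 at stage 12 against 1968 ± 80 at stage 6 in N. benthamiana, 655 ± 20 against 1366 ± 90 in N. rustica and 2190 ± 742 against 2401 ± 138 in N. glauca. N. plumbaginifolia had 384 ± 9 against 490 ± 20 and the joint profile 588 ± 38 against 1136 ± 43. All 5 stage 12 values were lower, in N. glauca by less than the stage 12 SD. The estimate of −0.66 (SE 0.21) did not pass (limma adjusted p = 0.13).

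**Figure D2:**
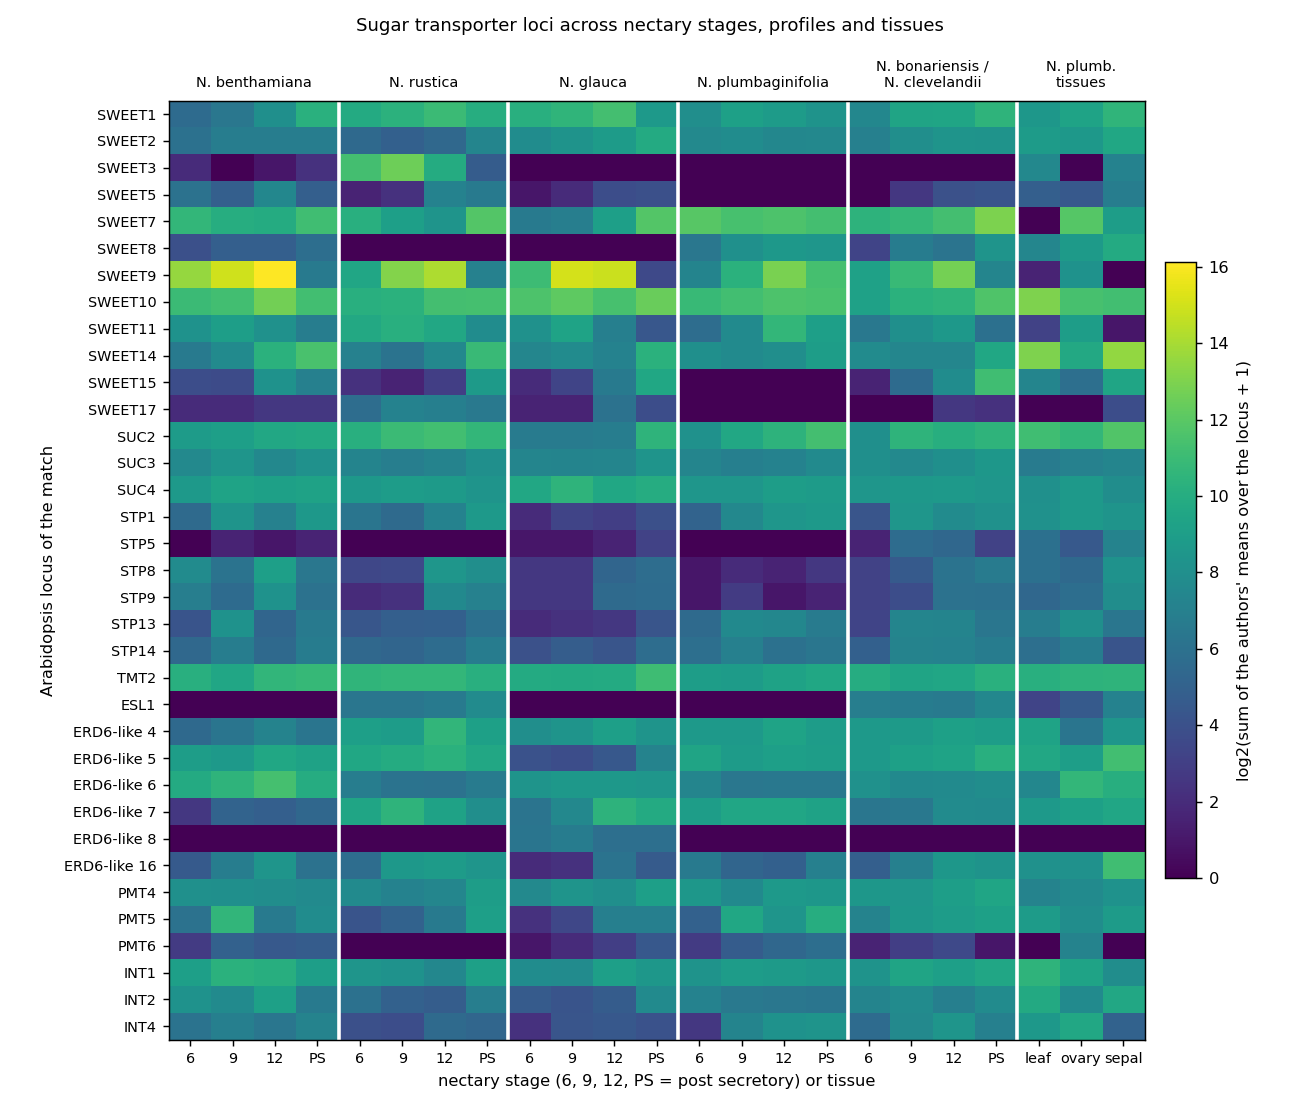
Heat map of log2 of the summed authors' means plus 1 for the 35 Arabidopsis loci of the sugar transporters (rows) in the 20 nectary groups of 5 profiles and the 3 tissues of N. plumbaginifolia (columns). Within each profile SWEET9 is brightest at stage 12, or at stage 9 in N. glauca. SWEET14 is brightest in sepal and leaf, and 7 loci are at 0 in all N. plumbaginifolia nectary stages.

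Of the proton-coupled sucrose carriers, SUC2 is the phloem-loading symporter of Arabidopsis. Its transcript XM_016599244.1 had 2439 ± 75 at stage 12 against 1155 ± 32 at stage 6 in N. rustica, 1386 ± 107 against 278 ± 26 in N. plumbaginifolia and 797 ± 26 against 457 ± 9 in N. benthamiana. In the joint profile it had 963 ± 90 against 236 ± 7. N. glauca had 115 ± 19 against 103 ± 8 and a far higher mean only post secretory, with 1454 ± 508. The step passed within 4 profiles for the locus, and the estimate over profiles of 1.29 (SE 0.51) did not (limma adjusted p = 0.11). In N. plumbaginifolia the stage 12 nectary, at 1386 ± 107, was below sepal, at 3445 ± 76, and leaf, at 2317 ± 382. The log2 difference of nectary against tissue was −1.31 for sepal (SE 0.07, limma adjusted p = 1.6e-15) and −0.74 for leaf (SE 0.21, limma adjusted p = 0.031).

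SUC3, a plasma membrane sucrose symporter of Arabidopsis sieve elements, rose after stage 12. Its sums were 281 post secretory against 184 at stage 12 in N. benthamiana, 265 against 145 in N. rustica, 322 against 162 in N. glauca, 205 against 140 in N. plumbaginifolia and 374 against 257 in the joint profile. The rise was 0.71 (SE 0.19, higher in 5 of 5, limma adjusted p = 0.032), small beside that of SWEET14. Phloem markers (5 transcripts) moved with it in 4 profiles, with sums of 304 post secretory against 110 at stage 12 in N. benthamiana, 422 against 165 in N. rustica, 482 against 173 in N. glauca and 491 against 199 in the joint profile. In N. plumbaginifolia they summed to 125 against 155. Their part in the rise was not tested.

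SUC4, which releases sucrose from the vacuole in Arabidopsis, gave small estimates. Its SUC4-like transcript XM_016621607.1 had 312 ± 17 at stage 12 against 235 ± 4 at stage 6 in N. benthamiana and 279 ± 22 against 194 ± 15 in N. plumbaginifolia, and was listed at 0 in N. rustica. The second variant of the same gene, XM_016621608.1, had 325 ± 78 against 416 ± 42 in N. glauca and did not exceed 8 in N. benthamiana. The locus estimates were 0.29 (SE 0.17, limma adjusted p = 0.25) for stage 12 against 6 and −0.07 (SE 0.17, limma adjusted p = 0.82) for post secretory against stage 12.

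Sugar transport proteins take up hexoses with protons at the plasma membrane. The STP1 locus rose by 2.04 at stage 12 relative to stage 6 (SE 0.51, higher in 5 of 5, limma adjusted p = 0.023). Its sums were 132 at stage 12 against 47 at stage 6 in N. benthamiana, 141 against 75 in N. rustica, 351 against 34 in N. plumbaginifolia and 214 against 18 in the joint profile, and 7 against 3 in N. glauca. Of its 3 transcripts only the STP12-like XM_016619220.1 bears the searched name, and the other two are called MST1 and sugar carrier protein C-like. XM_016619220.1 alone had 288 ± 62 against 18 ± 0 in N. plumbaginifolia and 6 ± 2 against 7 ± 1 in N. benthamiana, and its estimate of 1.69 (SE 0.64) did not pass (limma adjusted p = 0.21). Ovule and ovary markers were also higher at stage 12 in the 2 profiles with the largest differences, at 1653 against 408 in N. plumbaginifolia and 2493 against 186 in the joint profile. They were at 509 against 251 in N. rustica, 373 against 364 in N. benthamiana and 91 against 93 in N. glauca, and their part in the rise was not tested. In N. plumbaginifolia the STP1 locus had 351 (SD at most 81) in the stage 12 nectary and 400 (SD at most 30) in the ovary.

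SWEET5, STP8 and STP9 are known from Arabidopsis pollen. SWEET5 had 179 at stage 12 against 67 at stage 6 in N. benthamiana, 138 against 2 in N. rustica, 13 against 1 in N. glauca and 15 against 0 in the joint profile, and was listed at 0 in N. plumbaginifolia nectaries. STP8 had 545 against 215, 352 against 10, 37 against 5 and 71 against 8 in the same 4 profiles, and 2 against 1 in N. plumbaginifolia. The rise over profiles was 2.75 for SWEET5 (SE 0.77, limma adjusted p = 0.035) and 2.52 for STP8 (SE 0.72, limma adjusted p = 0.037), and the STP9 estimate of 2.59 (SE 0.82) narrowly missed the threshold (limma adjusted p = 0.054).

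Markers of anthers moved with these 3 loci. The 2 LAT52 transcripts, named for a tomato pollen protein, summed to 347 at stage 12 against 122 at stage 6 in N. benthamiana, 282 against 10 in N. rustica, 27 against 1 in N. glauca, 74 against 7 in the joint profile and 3 against 5 in N. plumbaginifolia. Within N. benthamiana the marker sum, SWEET5, STP8 and STP9 all had lower values at stage 9 and post secretory than at stage 12. The part of anther RNA in these results was not tested. In N. plumbaginifolia sepal, where the marker sum was 145, SWEET5 had 114 (SD at most 52), STP8 294 (SD at most 98) and STP9 239 (SD at most 92), all above the nectary.

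The STP13-like transcript XM_016638727.1, with no Arabidopsis match, was most abundant in N. benthamiana, with 299 ± 25, 1003 ± 127, 131 ± 25 and 335 ± 60 at stages 6, 9, 12 and post secretory. In N. plumbaginifolia it had 33 ± 5 at stage 12 against 111 ± 6 at stage 6. STP13 takes up hexoses in stressed tissue in Arabidopsis. The transcripts that match its locus had their highest sum at stage 9 in 3 profiles. The locus summed to 294 at stage 9 against 17 at stage 6 in N. benthamiana, 198 against 47 in N. plumbaginifolia and 158 against 9 in the joint profile. In the same 3 profiles ovule and ovary markers were at 1887 against 364, 2519 against 408 and 2680 against 186, with 346 against 251 in N. rustica and 163 against 93 in N. glauca, where STP13 did not exceed 28 at stage 9. Their part was not tested, and the N. plumbaginifolia ovary had 262 (SD at most 25) for the STP13 locus. The estimate for stage 9 against stage 6 was 2.19 (SE 0.56, higher in 5 of 5, limma adjusted p = 0.15). STP14, a galactose transporter in Arabidopsis, had 1.07 (SE 0.35, limma adjusted p = 0.20) in this step. Among nectaries, STP5 exceeded 8 only in the joint profile, with 50 and 40 at stages 9 and 12.

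ERD6-like 4, whose locus is the single transcript XM_016628934.1, had its highest value at stage 12 in all 5 profiles. It had 144 ± 12 at stage 12 against 44 ± 5 at stage 6 in N. benthamiana, 1584 ± 81 against 542 ± 14 in N. rustica and 548 ± 194 against 244 ± 3 in N. glauca. N. plumbaginifolia had 649 ± 29 against 397 ± 17 and the joint profile 562 ± 113 against 400 ± 11. The difference was larger than the SDs in every profile. It rose by 1.12 (SE 0.18, higher in 5 of 5, limma adjusted p = 0.020), the only 1 of 98 transporters to rise in this step (0.478% of all transcripts rose), and 0 fell (0.36% of all). Among the transcripts this call was lost without N. benthamiana, N. rustica or N. glauca (limma adjusted p between 0.067 and 0.1), and among the loci it held. Its post secretory means of 77 ± 13, 584 ± 138, 321 ± 81, 485 ± 23 and 509 ± 243, in the same order of profiles, were all lower than at stage 12, and the fall of 0.73 (SE 0.18) passed among the loci (limma adjusted p = 0.022) but not among the transcripts (limma adjusted p = 0.081). The stage 12 nectary of N. plumbaginifolia was above ovary, at 77 ± 5, by 3.06 (SE 0.11, limma adjusted p = 2.8e-08), and had the same mean as leaf, at 649 ± 200.

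ERD6-like 16 rose by 2.61 over the profiles at stage 12 relative to stage 6 (SE 0.69, higher in 4 of 5, limma adjusted p = 0.028). Its sums were 340 against 23 in N. benthamiana, 460 against 53 in N. rustica, 70 against 3 in N. glauca and 364 against 29 in the joint profile. N. plumbaginifolia went the other way with 30 (SD at most 12) at stage 12 against 95 (SD at most 7) at stage 6, a fall that passed within that profile. Its sepal held 2324 (SD at most 111), and leaf and ovary 286 (SD at most 363) and 290 (SD at most 394).

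The remaining ERD6-like loci gave no call over the profiles. ERD6-like 6, which exports glucose from the vacuole in Arabidopsis, summed to 2582 (SD at most 151) at stage 12 in N. benthamiana and to 66 to 392 in the other 4 profiles, with an estimate of −0.06 (SE 0.27, limma adjusted p = 0.90) against stage 6. The ERD6-like 7 transcript XM_016607421.1 had 1427 ± 62 at stage 9 in N. rustica and 1214 ± 589 at stage 12 in N. glauca, did not exceed 40 in N. benthamiana and was listed at 0 in N. plumbaginifolia nectaries. ERD6-like 5 transcript XM_016607407.1 had 1021 ± 51 at stage 12 against 528 ± 38 at stage 6 in N. rustica, and 266 ± 10 against 338 ± 34 in N. plumbaginifolia. ESL1 was seen in N. rustica and joint nectaries only, with at most 219 and 173. ERD6-like 8 was listed at 0 outside N. glauca, where it had 57 to 110.

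The monosaccharide-sensing proteins, all 11 matching the vacuolar glucose and fructose loader TMT2, gave small estimates as a locus. Sums were 1585 at stage 12 against 1136 at stage 6 in N. benthamiana, 1625 against 1506 in N. rustica, 930 against 942 in N. glauca, 631 against 502 in N. plumbaginifolia and 728 against 1010 in the joint profile. The estimates were 0.09 (SE 0.23, limma adjusted p = 0.84) for this step and 0.39 (SE 0.23, limma adjusted p = 0.29) for post secretory against stage 12. Single transcripts differed widely, since XM_016611422.1 had 529 ± 86 at stage 12 in N. glauca, 5 ± 1 in N. benthamiana and 0 in N. plumbaginifolia nectaries, where XM_016655902.1 had 118 ± 7. XM_016631894.1 was the 1 nectary-enriched transporter of N. plumbaginifolia (4.59% of all transcripts passed that rule). It had 205 ± 17, 250 ± 25, 438 ± 43 and 470 ± 47 over the 4 stages, against 0 in leaf, 2 ± 2 in ovary and 13 ± 9 in sepal. Its locus was not enriched, with 1147 (SD at most 465) in leaf and 1447 (SD at most 114) in sepal.

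Polyol transporter 5, which in Arabidopsis carries a broad range of polyols and sugars, did not peak at the same stage in all profiles. XM_016595155.1 had 58 ± 11, 1420 ± 28, 73 ± 4 and 161 ± 18 at stages 6, 9, 12 and post secretory in N. benthamiana. N. rustica had 17 ± 4, 31 ± 8, 98 ± 28 and 541 ± 268, N. glauca 4 ± 4, 10 ± 1, 119 ± 30 and 124 ± 8, and the joint profile 145 ± 15, 374 ± 41, 465 ± 56 and 556 ± 299. The transcript peaked at stage 9 in N. benthamiana and at the post secretory stage in the other 3, and it was listed at 0 in N. plumbaginifolia. There the locus had 31, 760, 345 and 1037. Ovule and ovary markers took 364, 1887, 373 and 1028 over the 4 stages in N. benthamiana and 408, 2519, 1653 and 2147 in N. plumbaginifolia. In both they were higher at stage 9 and post secretory than at stages 6 and 12. The other 3 profiles differed. N. rustica had marker sums of 251, 346, 509 and 338, and the joint profile 186, 2680, 2493 and 412, lower post secretory than at stage 12, where the transcript was higher. N. glauca had 93, 163, 91 and 621, lower at stage 12 than at stage 9, where the transcript was higher. The part of these markers was not tested. The N. plumbaginifolia ovary had 236 (SD at most 34) for this locus. The locus was higher at stage 12 than at stage 6 within all 5 profiles, with an estimate of 2.55 (SE 0.83, limma adjusted p = 0.060). Polyol transporter 4 had 165 ± 34 at stage 12 against 186 ± 17 at stage 6 in N. benthamiana and 419 ± 76 against 242 ± 26 in the joint profile for XM_016602224.1. The other transcript, XM_016632895.1, was higher post secretory than at stage 12 in 5 of 5 profiles, by 0.74 (SE 0.28, limma adjusted p = 0.22). PMT6 was above 100 only in ovary, at 149 (SD at most 14), and did not exceed 55 in nectaries.

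Of the inositol transporters, INT4, a plasma membrane inositol symporter in Arabidopsis, rose by 2.48 at stage 12 relative to stage 6 (SE 0.61, higher in 5 of 5, limma adjusted p = 0.022). The sums were 292 against 5 in N. plumbaginifolia, 341 against 48 in the joint profile, 46 against 14 in N. rustica, 21 against 4 in N. glauca and 79 against 68 in N. benthamiana. Within profiles the difference passed in N. plumbaginifolia, the joint profile and N. rustica, and not in N. benthamiana or N. glauca. The ovule and ovary marker sums given beside STP1 were also furthest apart between these stages in N. plumbaginifolia and the joint profile, and their part was not tested. The N. plumbaginifolia transcript XM_016625246.1 had 292 ± 33 in the stage 12 nectary, against 361 ± 463 in leaf, 814 ± 168 in ovary and 28 ± 5 in sepal. INT1, a vacuolar inositol exporter in Arabidopsis, was carried mainly by XM_016659948.1 in N. benthamiana (820 ± 62 at stage 12 against 450 ± 20 at stage 6) and N. plumbaginifolia (442 ± 57 against 312 ± 26). The other INT1-like transcript, XM_016589323.1, carried it in N. rustica (176 ± 8 against 344 ± 24), N. glauca (519 ± 66 against 219 ± 13) and the joint profile (529 ± 28 against 304 ± 20). INT2 transcript XM_016604996.1 had 83 ± 6 in stage 12 nectaries of N. plumbaginifolia, against 868 ± 632 in leaf, 206 ± 59 in ovary and 808 ± 73 in sepal.

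**Figure D3:**
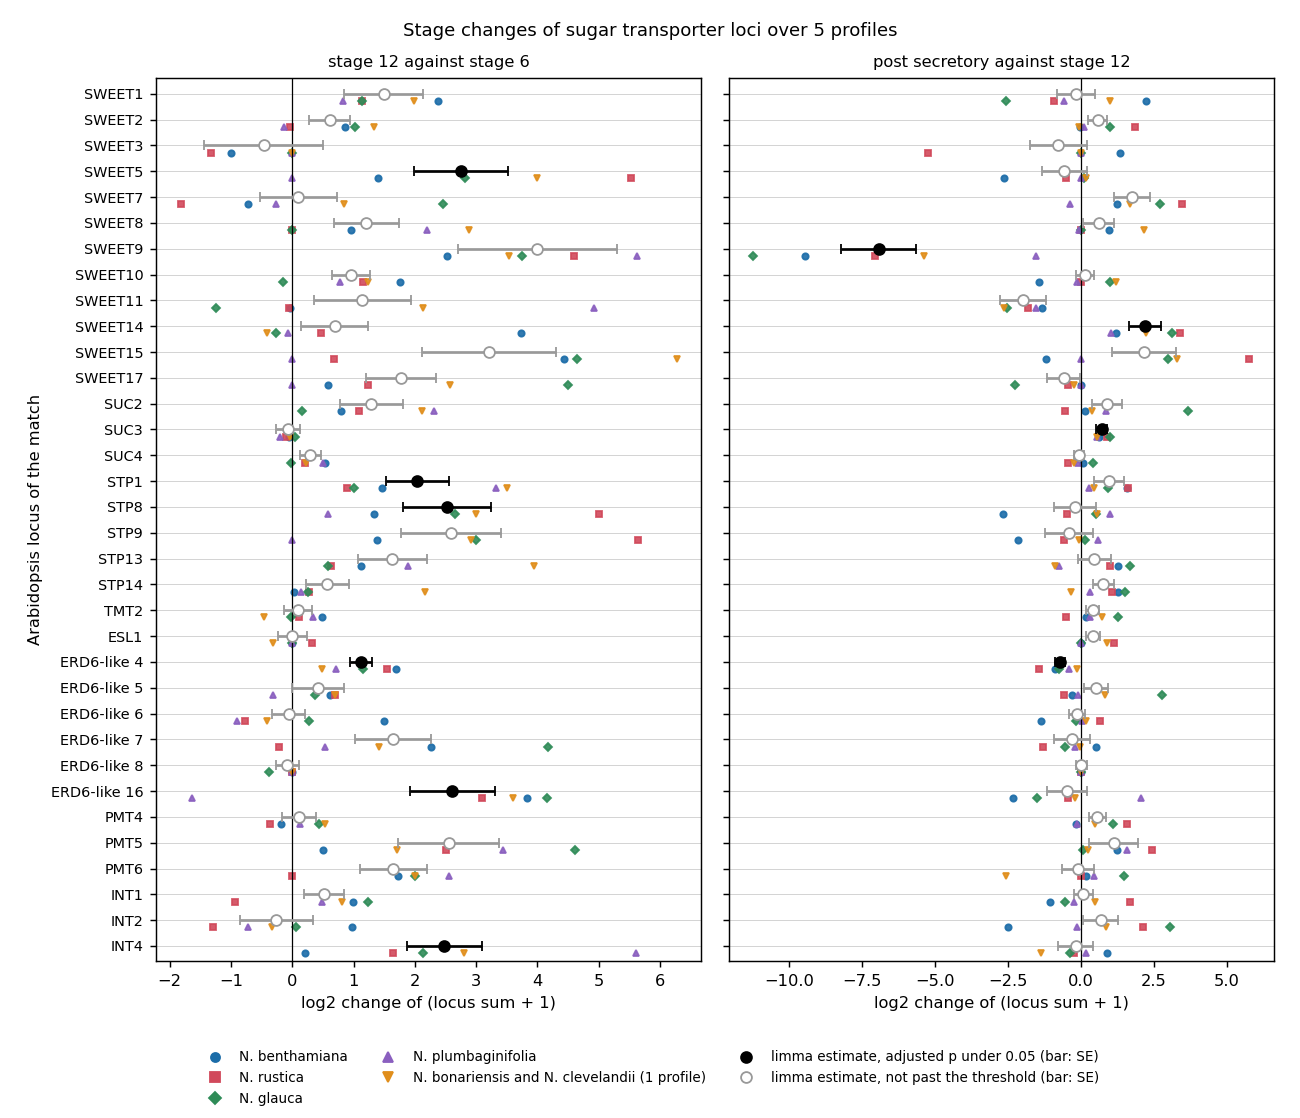
Log2 change of the locus sums plus 1 for stage 12 against stage 6 and post secretory against stage 12, with the limma estimate and its SE over 5 profiles (black where adjusted p is under 0.05) and each profile's own value in colour. The 6 loci called at stage 12 all lie to the right of 0, and SWEET9 has the largest fall at the post secretory stage, with −1.55 in N. plumbaginifolia and −11.23 in N. glauca at its ends.

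Counted together, 6 of 34 transporter loci rose at stage 12 relative to stage 6 and 0 fell (limma, adjusted p under 0.05), where 5.64% of all 12367 loci rose and 5.39% fell. The median change was 1.13 over the transporter loci and 0.05 over all loci, and 29 of 34 had a positive estimate, against 54.3% of all. With N. rustica left out 2 transporter loci passed, and with N. glauca or the joint profile left out 1. At the post secretory stage relative to stage 12, 2 rose and 2 fell, where 4.84% of all loci rose and 6.56% fell, and the medians were 0.10 and −0.05. Without N. rustica or N. glauca 1 passed in this step, and without the joint profile 2. Neither single step up to stage 12 gave a call. For stage 9 against stage 6, 0 transcripts and 0 transporter loci passed (0% of all transcripts and loci), with 13 of 98 transporter transcripts and 8 of 34 loci at an unadjusted p under 0.05 (8.16% of all transcripts and 14.6% of all loci). For stage 12 against stage 9, 0 passed (0% of all transcripts and 0.0162% of loci rose), with 7 transcripts and 5 loci at an unadjusted p under 0.05 (4.85% of all transcripts and 8.14% of all loci).

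Within each profile, where the test rests on the authors' SDs of 3 libraries, many more passed and so did many other loci. At stage 12 against stage 6, 24 of 30 transporter loci rose and 1 fell in N. benthamiana (36.4% and 30% of all loci). In the joint profile 23 of 30 rose and 3 fell (30.7% and 28.5% of all), and in N. rustica 17 of 30 rose and 7 fell (38.6% and 33.2% of all). In N. plumbaginifolia 16 of 26 rose and 5 fell (30.7% and 33.1% of all), and in N. glauca 13 of 27 rose and 1 fell (30.1% and 22.7% of all). The share of transporter loci that rose was above the share of all loci in each of the 5 profiles, and the excess was widest in the joint profile and N. benthamiana.

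The rise within profiles was spread over both steps. At stage 9 against stage 6, 21 of 30 loci rose and 7 fell in N. benthamiana (29.9% and 33.7% of all loci), 20 of 30 rose and 4 fell in the joint profile (23.6% and 24.7% of all) and 14 of 21 rose and 0 fell in N. glauca (35.6% and 32.5% of all). In N. plumbaginifolia 14 of 26 rose and 6 fell (24.4% and 26.6% of all), and in N. rustica 11 of 28 rose and 7 fell (31% and 32.6% of all). At stage 12 against stage 9, 15 of 30 rose and 9 fell in N. benthamiana (37.7% and 26.6% of all), 14 of 30 rose and 5 fell in N. rustica (32.7% and 22.9% of all) and 10 of 27 rose and 3 fell in N. glauca (19.8% and 14.9% of all). N. plumbaginifolia had 11 of 26 higher and 3 lower (22% and 20.8% of all), and the joint profile 11 of 31 higher and 4 lower (14% and 9.63% of all). SWEET1, SWEET9 and SWEET11 were higher at stage 9 than at stage 6 within all 5 profiles.

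After stage 12 the share of transporter loci that rose was above that of all loci in N. rustica (35.5% against 17.2%), N. glauca (32.3% against 19.7%) and the joint profile (16.1% against 9.2%). It was near it in N. benthamiana (36.7% against 32.6%) and N. plumbaginifolia (23.1% against 21%). The share that fell was below that of all loci in N. glauca (16.1% against 27.7%) and near it in the other profiles. In post secretory nectaries 11 of 30 rose and 12 fell in N. benthamiana (32.6% and 36.4% of all loci), 11 of 31 rose and 6 fell in N. rustica (17.2% and 19.5% of all) and 10 of 31 rose and 5 fell in N. glauca (19.7% and 27.7% of all). N. plumbaginifolia had 6 of 26 higher and 6 lower (21% and 18.8% of all), and the joint profile had 5 of 31 higher and 4 lower (9.2% and 11.5% of all). For stage 12 against stage 6 the authors' deposited table calls 36 transporters changed in N. benthamiana (33.6%, against 19.6% of all transcripts), 30 of them with a higher stage 12 mean. In the other profiles the authors' deposited table calls 29 in N. rustica (27.1%, against 24.5% of all), 23 in N. plumbaginifolia (21.5%, against 17.9%), 32 in the joint profile (29.9%, against 26.8%) and 18 in N. glauca (16.8%, against 21.7%). The share was thus below that of all transcripts in N. glauca.

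Few transporter loci had their highest sum at stage 6. Stage 6 held the highest sum of 1 of 30 transporter loci in N. benthamiana (24.1% of all loci), 1 of 31 in N. rustica (27.5%), 0 of 31 in N. glauca (26.2%), 4 of 26 in N. plumbaginifolia (33.1%) and 1 of 32 in the joint profile (32.7%). The post secretory stage held 9, 14, 19, 9 and 16 of them in the same order of profiles (30%, 45.2%, 61.3%, 34.6% and 50%, against 31.3%, 36.6%, 28.7%, 21.8% and 32.2% of all loci). Stage 12 held 12, 10, 7, 7 and 10 (40%, 32.3%, 22.6%, 26.9% and 31.2%, against 27.2%, 19.9%, 31%, 21.7% and 17.4% of all). Of the 24 transporter loci measured in all 5 profiles, SWEET14 and ERD6-like 4 had 1 peak stage throughout (8.33%, near the 7.97% of all loci). These are descriptions without a test.

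**Figure D4:**
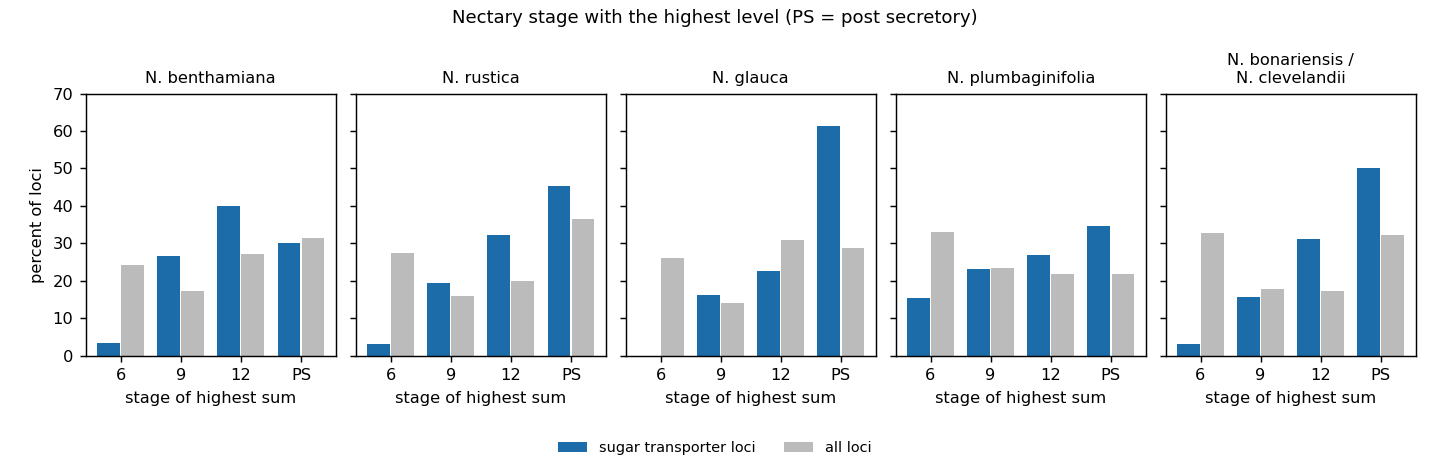
Percent of loci with their highest summed mean at each nectary stage in the 5 profiles, for the sugar transporter loci (blue) and for all loci (grey) with at least 10 in some stage. Stage 6 holds 0% to 15.4% of the transporter loci and 24.1% to 33.1% of all loci.

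Against the 3 other organs of N. plumbaginifolia, more transporter loci were lower than higher in the stage 12 nectary, as were more of all loci. Against sepal, 18 of 33 were lower and 12 higher (45.4% and 35.4% of all loci), against ovary 17 of 32 were lower and 6 higher (45% and 20.7% of all), and against leaf 12 of 32 were lower and 7 higher (21.7% and 13.3% of all). The loci higher than all 3 tissues by this test were SWEET9, SWEET11, SUC4 and PMT4. The share of all loci higher than all 3 is not given here, so this list is a description only. SUC4 exceeded ovary by just 0.33 (SE 0.13, limma adjusted p = 0.046). SUC4 stood at 499 (SD at most 47) in the nectary against 269 (SD at most 54), 398 (SD at most 57) and 240 (SD at most 17) in leaf, ovary and sepal, and PMT4 at 401 (SD at most 35) against 144 (SD at most 55), 211 (SD at most 29) and 298 (SD at most 37). SWEET9 and SWEET11 differed from the tissues by more on the log2 scale than SUC4 and PMT4.

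By the 4-fold rule, 12 of 35 loci were enriched in a tissue over every nectary stage (13.6% of all loci) and 0 were enriched in the nectary (0.773% of all). Among single transcripts 46 of 107 were tissue-enriched (28.6% of all). Examples listed at 0 in every N. plumbaginifolia nectary stage were the N3-like XM_016634365.1 (1528 ± 76 in sepal) and SWEET10-like XM_016609893.1 (930 ± 59 in sepal), both of the SWEET14 locus. ERD6-like 5 XM_016639772.1 (579 ± 39 in sepal) and the monosaccharide-sensing XM_016611422.1 (584 ± 59 in ovary) and XM_016616018.1 (279 ± 18 in ovary) were also listed at 0 in those nectaries. Their loci were not tissue-enriched, since other transcripts of the same loci had values there. The ERD6-like 5 locus summed to 466 to 688 over the N. plumbaginifolia nectary stages and the TMT2 locus to 468 to 788. In all, 16 transporters (15%) were at 0 in the 4 nectary stages and at 100 or more in a tissue of the same species, as were 9.29% of all transcripts. The reverse, 100 or more in a nectary stage and 0 in all 3 tissues, was met by 0 transporters and 1.18% of all transcripts.

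**Figure D5:**
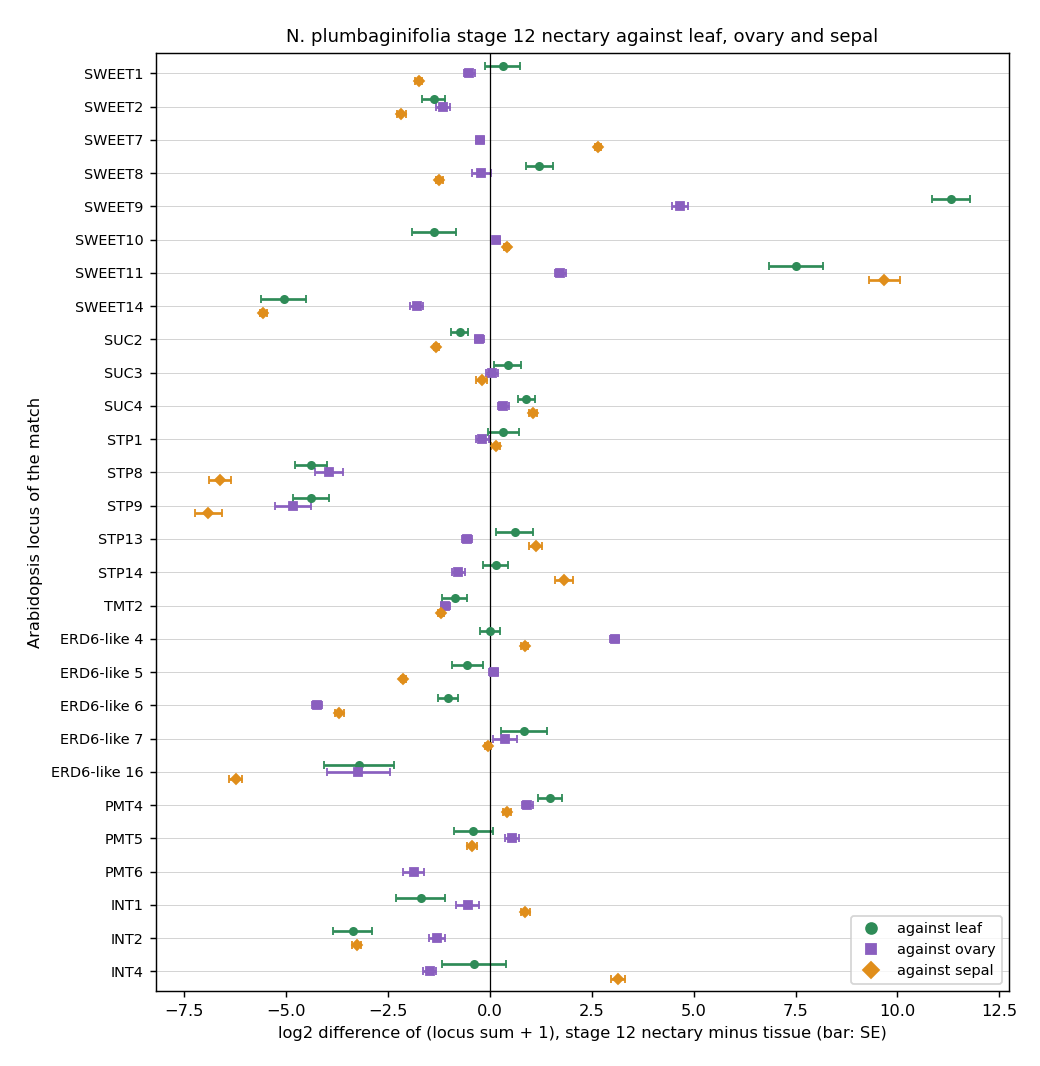
Log2 difference of the locus sums plus 1 between the stage 12 nectary and leaf, ovary or sepal of N. plumbaginifolia, with the SE from the authors' SDs of 3 libraries and without pairs in which a sum is 0. SWEET9 and SWEET11 lie to the right of 0, with 4.66 and 1.73 against ovary, and SWEET14 and ERD6-like 16 lie to the left against all 3 tissues.

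The other genes of sugar supply that were counted (86 transcripts of sucrose-phosphate synthase, sucrose-phosphatase, sucrose synthase, invertase, plasma membrane ATPase and plastid sugar carriers, 83 tested) gave 0 calls in the steps up to stage 12. At the post secretory stage relative to stage 12, 4 of the 83 fell (0.554% of all transcripts) and 0 rose (0.232% of all). The summed nectary markers were lower in this step in all 5 profiles, at 781 to 3508 post secretory against 12224 to 35729 at stage 12, and their part was not tested. The insoluble beta-fructofuranosidase XM_016593154.1, a cell wall invertase that splits exported sucrose, fell by 5.29 (SE 0.80, lower in 5 of 5, limma adjusted p = 0.0074). Sucrose synthase XM_016604254.1 fell by 2.24 (SE 0.31, lower in 5 of 5, limma adjusted p = 0.005). Of the sucrose-making enzymes, sucrose-phosphate synthase 2 XM_016607051.1 fell by 2.30 (SE 0.46, lower in 4 of 5, limma adjusted p = 0.036) and sucrose-phosphatase 2 XM_016645471.1 fell by 1.60 (SE 0.31, lower in 5 of 5, limma adjusted p = 0.03).

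Summed over all members, the transporters took 0.249% of the N. benthamiana column at stage 6, 0.471% at stage 9, 0.915% at stage 12 and 0.198% post secretory. In N. plumbaginifolia the share was 0.27% at stage 12 against 0.134% at stage 6, and in N. rustica 0.358% against 0.155%. In the joint profile it was 0.183% against 0.0725% and was highest post secretory, at 0.242%. In N. glauca it was 0.132% at stage 6, 0.477% at stage 9, 0.399% at stage 12 and 0.255% post secretory. The N. benthamiana peak was mostly the single NEC1-like transcript, with 70716 of a member sum of 92574.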

How the data were processed

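The authors' deposited table gives, for each of 27 groups of 3 libraries, the mean and SD of normalized counts as whole numbers (unit score) and yes or no calls of differential expression (unit other). The authors used DESeq, per the submitters' processing notes. Aligner, versions and call threshold were not stated in the labels or headers. The protocol names stems where the sample labels say sepal, and the labels were followed. Depth and values per library are not in the table used here, so counting precision is unknown.

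The stage effect was fitted with limma 3.58.1 (R 4.3.3) on log2 of the mean plus 1, with profile as a block and a variance trend. It leaves 12 residual degrees of freedom, and the 5 profiles serve as replicates. Calls needed a Benjamini-Hochberg adjusted p under 0.05 over the 36627 transcripts that averaged 10 or more across the nectary means. The same fit was made on sums per Arabidopsis locus, a step added after the values were seen. Within a profile, 2 groups were compared by limma's variance moderation of delta-method errors from the deposited SDs (4 degrees of freedom, mean of the 2 groups of at least 10), an approximation from summary values. A moderated F test compared profiles. All 3 tests were run on simulated transcripts, and locus sums were not simulated. False calls made up 4.02% of calls in the stage fit, 6.37% in the within-profile test and 14.9% in the F test, which made too many. The stage fit was simulated with noise set below the spread of the data, so its figure may be too favourable. Very small p-values from 3 libraries should be read as calls only.

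Alternatives tried were another pseudocount, filter, scaling and variance model, both copies of the duplicated columns, each profile left out and the authors' calls. Transcripts were named by rule: NEC1-like or SWEET9-matched, the 3 highest nectary means of each class, those past the threshold, and up to 6 nectary-enriched and tissue-enriched ones. Others, and all locus descriptions, were chosen after their values were seen. The members and lists were chosen with earlier results of these data known. Log2 values are differences of log2(value + 1), and this scale understates changes of low values.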

Additional observations from a re-analysis of the deposited data

Results flagged for a closer look

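The change of a step was compared between profiles for the most abundant transcript of each class and for the NEC1-like transcripts. In this moderated F test 72.1% of all transcripts differed at stage 12 against stage 6 and 51.8% at post secretory against stage 12, so a difference is common, and the test made too many false calls in simulated data.

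For stage 12 against stage 6, the NEC1-like XM_016615427.1 ranged from 2.53 to 5.62 on the log2 scale (F = 43.8) and XM_016577514.1 from 1.84 to 4.91 over 3 profiles (F = 112). The SUC2-matched XM_016599244.1 ranged from 0.16 in N. glauca to 2.31 in N. plumbaginifolia (F = 89.6). INT1 transcript XM_016589323.1 (F = 99.9) and the STP13-like XM_016638727.1 (F = 44.6) took both signs. ERD6-like 4 XM_016628934.1 (F = 10.9) and polyol transporter 5 XM_016595155.1 (F = 24) were positive in all profiles tested.

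For post secretory against stage 12, XM_016615427.1 had F = 168 and XM_016577514.1 F = 24.3, with every tested profile negative. SUC2-matched XM_016599244.1 (F = 28.7), INT1 XM_016589323.1 (F = 66.4), STP13-like XM_016638727.1 (F = 9.03) and the monosaccharide-sensing XM_016611422.1 (F = 7.65) took both signs. Polyol transporter 5 XM_016595155.1 (F = 10.8) was positive and ERD6-like 4 XM_016628934.1 (F = 3.47) negative throughout. The monosaccharide-sensing XM_016611422.1 did not differ past the threshold at stage 12 against stage 6 (F = 3.26, limma adjusted p = 0.086).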

How the results depend on the processing

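No result reversed under any alternative that was run. The fall of the SWEET9 locus after stage 12 (−8.28 to −5.86, adjusted p 0.00062 to 0.046) and the rise of the ERD6-like 4 locus at stage 12 (0.98 to 1.28, adjusted p 0.00074 to 0.031) passed under all 11 alternatives. With 1 profile left out, the other named calls failed in some fits, with limma adjusted p up to 0.18 for XM_016615427.1, 0.17 for XM_016577514.1 and 0.10 for XM_016628934.1 among transcripts, and up to 0.15 among the loci. Pseudocount 10 ended the calls of STP8 (1.88, adjusted p 0.057) and SWEET5 (1.46, adjusted p 0.073). SWEET9 at stage 12 against stage 6 passed without N. plumbaginifolia (3.6, adjusted p 0.042) and with both copies entered (3.92, adjusted p 0.018). Counts of transporters called over profiles moved most when the joint profile was entered as 2 identical ones, a duplication that inflates n: at stage 12 against 6 to 14 transcripts and 16 loci, and at stage 9 against 6 to 1 transcript and 4 loci. With a mean of at least 100 required, 3 transcripts passed at stage 12 against 6. Leaving out each profile in turn gave 0 to 1 transcripts and 1 to 8 loci at stage 12 against 6, and 0 to 2 transcripts and 1 to 5 loci at post secretory against stage 12. At stage 12 against 6, 0 transcripts passed without N. benthamiana, N. rustica or N. glauca, 2 loci without N. rustica and 1 locus without N. glauca or the joint profile. At post secretory against stage 12, 0 transcripts passed unless N. plumbaginifolia was the one left out, and 1 locus passed without N. rustica or N. glauca and 2 without the joint profile. The authors' deposited calls were fewer than the within-profile test's in every comparison, and by more than 1.5 times at stage 9 against 6 in N. benthamiana (30), N. glauca (12), N. plumbaginifolia (18) and the joint profile (25), at stage 12 against 9 in N. glauca (16) and the joint profile (17), at stage 12 against 6 in N. plumbaginifolia (23), at post secretory against stage 12 in N. rustica (15), N. plumbaginifolia (14) and the joint profile (11), and at stage 12 against leaf (23) and sepal against leaf (21). The 2-fold rule gave 3 nectary-enriched transporters. Shares of all transcripts and loci under these alternatives are not given here, so the counts show only how far the calls moved. The cause of the differences between settings and from the authors' calls was not tested. No paired analysis was possible because the columns hold group means with no replicate numbers, and for the same reason no library could be left out.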
